A study of Sus scrofa with 16 samples.

Results

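The genes described are C3, which encodes complement component C3, and CFD, which encodes complement factor D (adipsin). They are 2 of the 6765 genes that the platform annotation names by a single symbol, and each had 1 probe set (Entrez gene 397072 for C3 and 396877 for CFD). Both probe sets lay at or above a log2 value of 4, the minimum used for testing, on 16 of 16 arrays. The pair was chosen by its log2 values in these data, compared between feeding levels and between muscles. Those values are therefore given as a description without a test, and tests on C3 and CFD are given for sex.

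The arrays were hybridised with RNA from diaphragm and psoas major (a muscle alongside the lumbar spine) of 8 Iberian pigs, a fat breed, at 211 days of age, with both muscles taken from each animal. Animals 1 and 4 were males and animals 6 and 7 females on the high feeding level. Animals 2 and 3 were males and animals 5 and 8 females under 20% restriction, so that each of the 8 combinations of muscle, sex and feeding level held 2 arrays. All pigs received the same pelleted diet before restriction began, and whether males were castrated is not given in the sources used here.

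Complement is a cascade of plasma proteins that marks microbes and damaged cells. All of its routes converge on C3, which is cleaved into C3a, a signalling peptide, and C3b, which binds covalently to surfaces. The classical route starts with C1q and the proteases C1r and C1s, and the alternative route needs factor B bound to C3b, which factor D, a serine protease, then cleaves. Liver makes most plasma C3, while macrophages, fibroblasts and adipocytes make it locally, and adipocytes are the best known source of factor D. In fat tissue C3a is further processed to acylation stimulating protein, which promotes triglyceride storage.

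C3 was lower under restriction in both muscles and lower in psoas than in diaphragm, whereas CFD differed between the muscles and hardly by feeding level. In diaphragm, C3 measured 9.39, 9.76, 8.94 and 9.55 (log2) in animals 1, 4, 6 and 7 on the high level. In the restricted animals 2, 3, 5 and 8 it measured 7.69, 7.64, 7.24 and 8.57. Every restricted diaphragm lay below every high-level diaphragm, and animal 8 was the restricted animal nearest to the other group. The means were 9.41 ± 0.35 and 7.78 ± 0.56 (SD, n = 4 animals each), a difference of -1.62 ± 0.30 (log2, SE, sex as covariate), or 3.08-fold. In bulk muscle, fewer cells that make a transcript and less of that transcript per cell cannot be told apart.

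In psoas, C3 measured 7.69, 8.10, 7.84 and 8.36 on the high level. It measured 6.14, 7.35, 7.40 and 7.34 in restricted animals 2, 3, 5 and 8. The groups again did not overlap, and the low value of animal 2 stood apart from the other restricted animals, at 7.34 to 7.40. The means were 7.99 ± 0.30 and 7.06 ± 0.61 (SD, n = 4 each), a difference of -0.94 ± 0.27 (SE), or 1.92-fold, and -0.66 without animal 2. Restricted arrays lay below all high-level arrays at 2.69% of tested probe sets in diaphragm, 2.56% in psoas and 0.262% in both muscles. Since C3 was chosen for this pattern, these shares are background only.

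**Figure D1:**
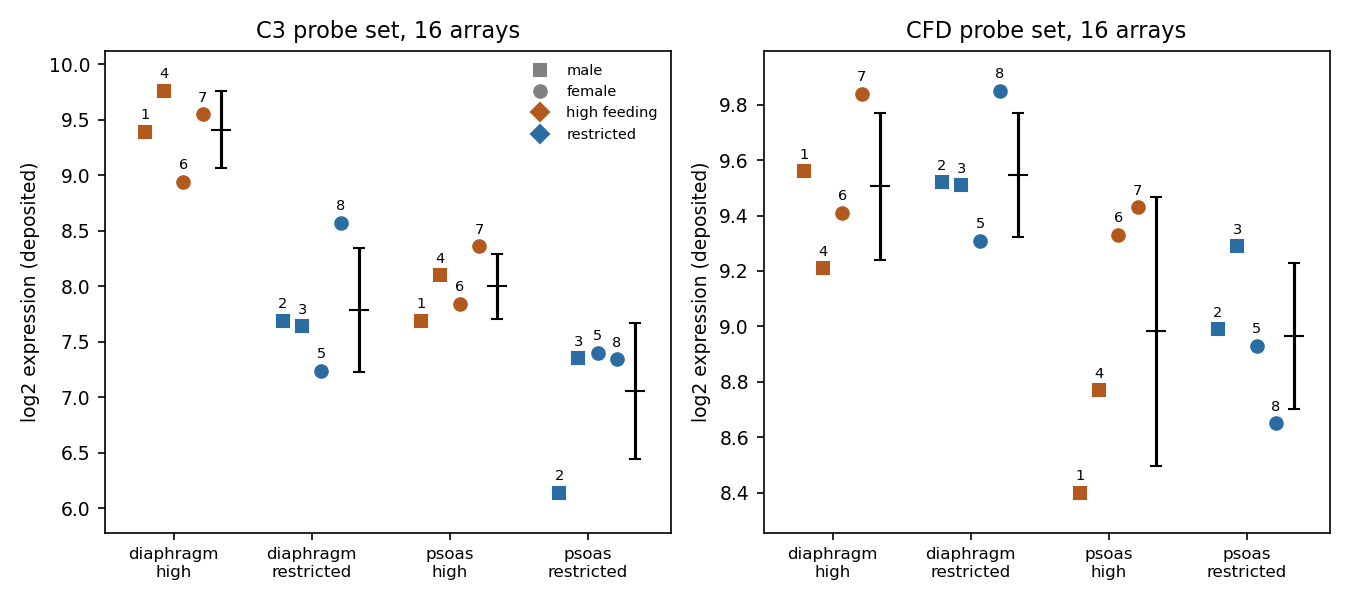
Deposited log2 expression of C3 (left) and CFD (right) on 16 arrays by muscle and feeding level. Points are arrays (squares males, circles females, numbers the animals), and bars are the mean ± SD of 4 animals. The C3 groups by feeding level do not overlap in either muscle, and those of CFD do.

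CFD covered nearly the same range at both feeding levels. In diaphragm it measured 9.56, 9.21, 9.41 and 9.84 in animals 1, 4, 6 and 7 on the high level and 9.52, 9.51, 9.31 and 9.85 in restricted animals 2, 3, 5 and 8. In psoas it measured 8.40, 8.77, 9.33 and 9.43 on the high level and 8.99, 9.29, 8.93 and 8.65 under restriction. The feeding groups overlapped in both muscles. The differences, restricted minus high, were 0.04 ± 0.16 in diaphragm and -0.02 ± 0.24 in psoas (log2, SE), and each took the other sign with some animal left out.

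Between the muscles, C3 was 2.10-fold lower in psoas, at 7.53 ± 0.67 against 8.60 ± 0.97 in diaphragm (log2, SD, n = 8 arrays each), a difference of -1.07 ± 0.23 (SE). It was lower in psoas in 7 of 8 animals. The exception was animal 5, with 7.24 in diaphragm and 7.40 in psoas. CFD was 1.47-fold lower in psoas, at 8.97 ± 0.36 against 9.53 ± 0.23 (SD, n = 8 each), a difference of -0.55 ± 0.15 (SE), and was lower in 8 of 8 animals. Of all tested probe sets, 9.71% were lower in psoas in 8 of 8 animals and 19.5% in at least 7. Markers of macrophages and endothelium were also lower in psoas, as given further on. So were those of hepatocytes, but most of these reached the minimum for testing through diaphragm alone, which fixes their direction. The part of these cells in the muscle differences of C3 and CFD was not tested.

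The muscle difference of C3 was wider on the high level. There psoas minus diaphragm was -1.70, -1.66, -1.10 and -1.19 in animals 1, 4, 6 and 7, with a mean of -1.41 ± 0.31 (SD, n = 4). Under restriction it was -1.55, -0.29, 0.16 and -1.23 in animals 2, 3, 5 and 8, with a mean of -0.73 ± 0.80. The sets overlap, with animals 2 and 8 within the range of the high level and animals 3 and 5 above it. For CFD the means were -0.52 ± 0.45 and -0.58 ± 0.43 (SD, n = 4 each), and the 2 narrowest differences were those of animals 6 (-0.08) and 3 (-0.22).

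**Figure D2:**
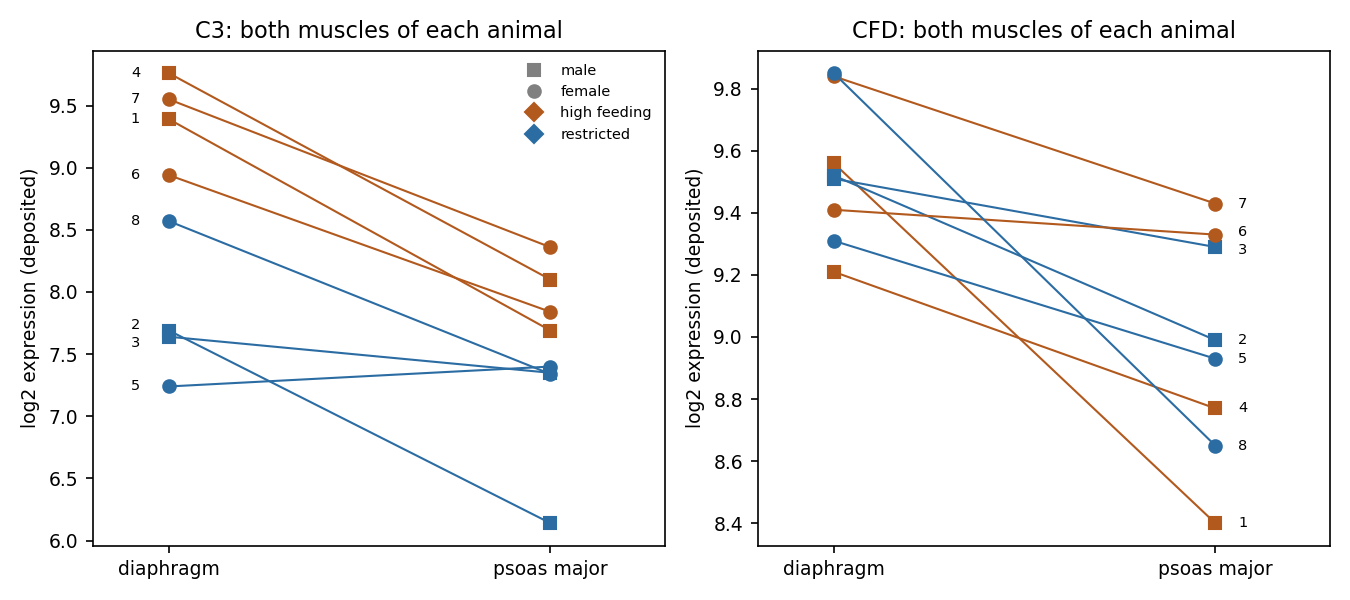
Deposited log2 expression of C3 (left) and CFD (right) in diaphragm and psoas major, with a line joining the muscles of each animal (numbers are animals, squares males, circles females). All CFD lines fall from diaphragm to psoas, and all C3 lines but that of animal 5 do.

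Ordered by muscle and feeding level, C3 ran from diaphragm on the high level (9.41) through psoas on the high level (7.99) and restricted diaphragm (7.78) to restricted psoas (7.06). The spread within these groups was 0.47 (pooled SD, n = 4 each). The first step of 1.41 was wider than that spread. The step of 0.21 between psoas on the high level and restricted diaphragm was not. The last step of 0.73 exceeded the pooled SD, but not the SD of the paired muscle differences in the restricted animals, 0.80. CFD ran from restricted diaphragm (9.55) and diaphragm on the high level (9.50) to psoas on the high level (8.98) and restricted psoas (8.96), with a pooled SD of 0.33. Only its middle step, 0.52, was wider than the spread.

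Sex was not used to choose the genes, and neither gene passed its test. Over the mean of both muscles, females minus males was 0.18 ± 0.23 for C3 (log2, SE, 95% interval -0.34 to 0.70, adjusted p = 0.871, limma over all tested probe sets) and 0.19 ± 0.15 for CFD (interval -0.15 to 0.53, adjusted p = 0.784). The share of probe sets called between the sexes was 0.183%, against 0.122% within diaphragm and 0.0959% within psoas. Within diaphragm the differences were -0.05 for C3 and 0.16 for CFD (adjusted p = 0.983 and 0.906). Within psoas they were 0.41 and 0.22 (adjusted p = 0.600 and 0.764). The muscle difference did not pass a test of dependence on sex for C3 (0.46 ± 0.34, adjusted p = 0.692) or CFD (0.06 ± 0.29, adjusted p = 0.964).

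The feeding difference of CFD had opposite signs in the sexes, mainly in psoas. There restricted minus high was 0.55 in males and -0.59 in females, while in diaphragm it was 0.13 and -0.05 and the feeding groups overlapped in both sexes. Averaged over muscles, CFD was 8.98 and 8.99 in males on the high level and 9.26 and 9.40 in restricted males. It was 9.37 and 9.64 in females on the high level and 9.12 and 9.25 in restricted females. Restricted minus high was 0.34 in males and -0.32 in females, with 2 animals per combination. This interaction was -0.66 ± 0.20 (log2, SE) and did not pass (adjusted p = 1, limma). No probe set passed this test with 2 animals per combination, and 396 of 11467 had an unadjusted p under 0.05. For C3 restricted minus high was -1.52 in males and -1.04 in females, an interaction of 0.49 ± 0.45 (adjusted p = 1).

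**Figure D3:**
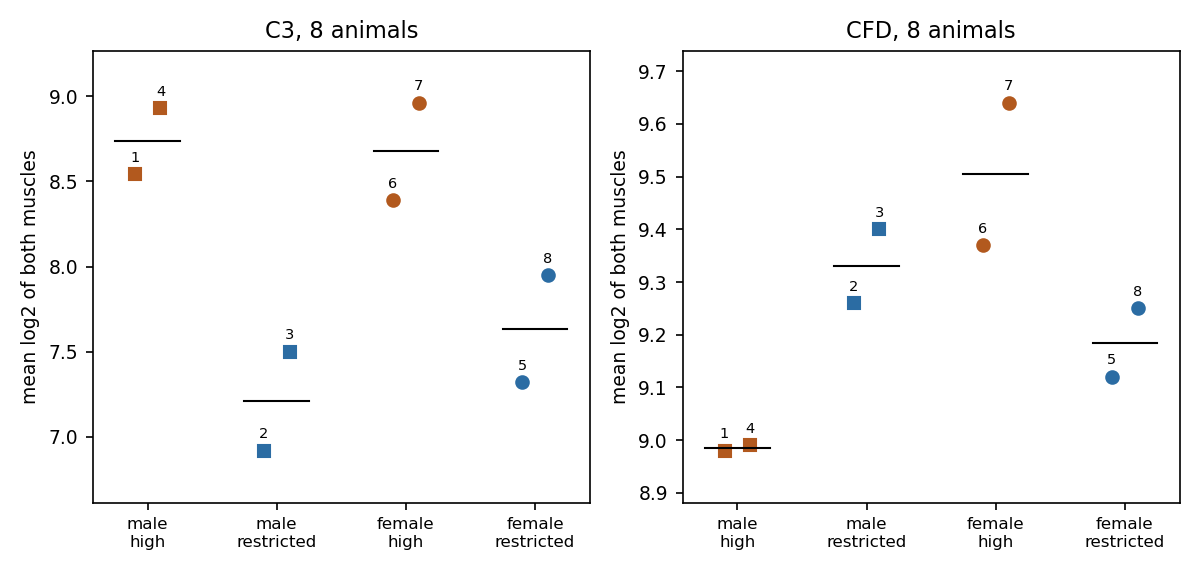
Mean log2 expression of both muscles for C3 (left) and CFD (right) in 8 animals, by sex and feeding level. Points are animals, numbered, and lines are the means of 2 animals. C3 is lower under restriction in both sexes, and CFD is higher under restriction in males (0.34) and lower in females (-0.32).

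Of 52 other complement genes in the lists, 30 had a probe set with a single symbol and 14 were tested. The detected genes were mostly those of initiation and regulation. Of 8 alternative and terminal route genes on the array, CFB, the factor B substrate of factor D, alone was tested. It stayed between 4.30 and 4.48 on all arrays, close to the minimum. Among the others, properdin (CFP), C5, C7, C8A, C8B and C8G lay below 4 on every array, and C9 reached 4.43. C2, MBL2 and FCN1 also lay below 4 throughout, and so did ITGAM and ITGB2, the chains of a receptor for C3 fragments.

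All 14 tested complement genes had a lower mean in psoas, with a median log2 difference of -0.67 against 0.02 over all tested probe sets, and 7 were called lower (limma, adjusted p under 0.05). The 7 include CD55, which passed the filter through diaphragm alone, so that its lower value in psoas follows from the filter. Over all tested probe sets 27.0% were called between muscles, 12.4% as lower in psoas. Of the 6 initiation genes 3 fell in psoas, namely the proteases C1S (-1.19 ± 0.18 SE, adjusted p = 0.000352) and C1R (-1.04 ± 0.17, adjusted p = 0.000603) and the C1q chain C1QC (-0.70 ± 0.24, adjusted p = 0.0454). C1S was at 8.78 ± 0.43 in psoas against 9.97 ± 0.44 in diaphragm (log2, SD, n = 8 each), lower in 8 of 8 animals. C1QA (-0.73), C4A (-0.31) and the lectin FCN2 (-0.05) did not pass. The test between muscles did not pair the muscles of each animal.

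Of 6 regulators 3 were called lower in psoas. SERPING1, the inhibitor of C1r and C1s, fell by 0.88 ± 0.16 (adjusted p = 0.00141), and CD59, which blocks the terminal complex on cells, fell by 0.56 ± 0.17 (adjusted p = 0.0227). CD55, which speeds decay of the C3 convertase, lay below 4 on every psoas array and on 4 of 8 diaphragm arrays. It passed the filter through diaphragm alone, so that its direction follows from the filter. C4BPA (-0.64), CD46 (-0.30) and clusterin CLU (-0.23) did not pass. VSIG4, a macrophage receptor for C3b, was called (-0.89 ± 0.29, adjusted p = 0.0346), with 4 of 8 psoas arrays below 4.

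The calls of C1S, C1R and SERPING1 held with any 1 animal left out. Over all 17 alternative analyses C1S and C1R kept theirs, while SERPING1 lost its call in 3 (adjusted p up to 0.071, limma). C1QC lost its call without animal 3, 4, 5, 6 or 7 (adjusted p = 0.0513 to 0.0818), VSIG4 without animal 1, 3, 4, 5 or 7 (0.053 to 0.0977) and CD59 without animal 5 (0.0613). A second tested probe set gave -0.47 for CD59 (adjusted p = 0.178) and -0.30 for CD46. Markers of other cells were mostly lower too, with 9 of 11 macrophage and leukocyte markers, 7 of 8 endothelial markers and 6 of 9 fibroblast markers called lower in psoas, against 12.4% of all tested probe sets. The fibroblast collagen COL3A1 was called higher there (0.45, adjusted p = 0.00668, limma). Their part in the complement differences was not tested.

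No complement gene was called between feeding levels in either muscle, and neither was any other probe set (0% of 11467, limma). At an unadjusted p under 0.05 there were 1101 probe sets in diaphragm and 1291 in psoas. Of the 14 complement genes, 12 had a lower mean in restricted diaphragm and 12 in restricted psoas, while 53.0% and 53.9% of all tested probe sets did. The medians of the 14 were -0.39 and -0.48, against -0.01 and -0.02 over all tested probe sets. The muscles came from the same animals, and the genes are not independent of each other. Measured differences were -0.81 and -0.68 for C1QC, -0.42 and -0.50 for C1S and -0.37 and -0.53 for C1R in diaphragm and psoas. CD59 (0.11 and 0.02) and CFB (0.04 and 0.05) were the exceptions. Restricted arrays lay below all high-level arrays for 0 of the 14 in diaphragm and for 1, CD55, at values below 4, in psoas. These counts are near the shares over all tested probe sets, 2.69% and 2.56%.

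**Figure D4:**
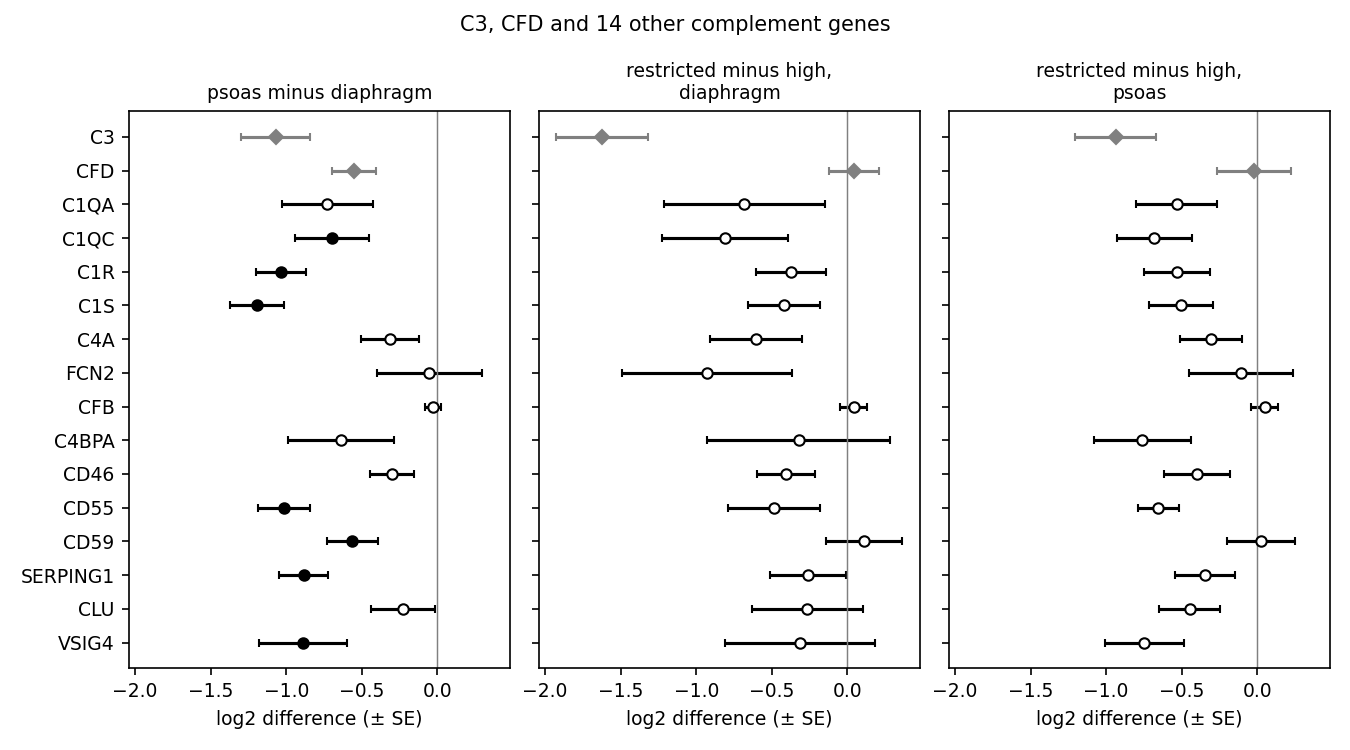
Log2 differences ± SE for C3, CFD and 14 other complement genes between muscles (left) and between feeding levels within diaphragm (middle) and psoas (right). Grey diamonds are C3 and CFD, given without a test, filled circles passed limma's test at an adjusted p under 0.05 and open circles did not. All 14 means are lower in psoas, 7 of them called, and none is called between feeding levels. The 7 include CD55, which passed the filter through diaphragm alone.

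Because liver makes C3, markers of hepatocytes were set beside it. The array carried 17 hepatocyte markers. The 7 that passed the filter were called lower in psoas, against 12.4% of all tested probe sets. In psoas 5 of them (ALB, FGB, HP, APOC3 and TF) lay below 4 on every array. These 5 passed the filter through diaphragm alone, so that their direction follows from it. The mean of the 7 in diaphragm was 7.36, 7.39, 5.48 and 6.60 (log2) in animals 1, 4, 6 and 7 on the high level. It was 4.85, 3.64, 5.51 and 7.93 in restricted animals 2, 3, 5 and 8. Animal 8, with the highest hepatocyte level of all arrays, also had the highest C3 of the restricted diaphragms. With the hepatocyte mean as a further covariate, chosen after seeing the data, the C3 difference by feeding in diaphragm was -1.30 ± 0.24 (SE). In psoas, where albumin (ALB) was 2.50 to 3.97 and the hepatocyte mean 3.13 to 3.78, C3 differed by -0.94. APOA1 was the marker clearly above the minimum there, at 6.42 to 7.58. The part of hepatocyte RNA in the C3 difference of diaphragm was not tested.

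None of 11 markers of macrophages and leukocytes was called by feeding level (limma). The mean was lower under restriction for 10 of 11 in each muscle, against 53.0% of all tested probe sets in diaphragm and 53.9% in psoas, with MRC1 in diaphragm (0.13) and CD74 in psoas (0.11) as the exceptions. Their mean level was 6.90 to 7.91 in high-level and 6.67 to 7.19 in restricted diaphragms, and 6.23 to 6.88 against 6.09 to 6.51 in psoas. The members of smallest p in diaphragm were LAPTM5, a lysosomal membrane protein of blood cells (-0.87, adjusted p = 0.477), and the MHC class II genes SLA-DRA (-0.59) and SLA-DRB1 (-0.57). With this mean as a covariate, also chosen after seeing the data, the C3 difference by feeding was -1.40 ± 0.38 in diaphragm and -0.85 ± 0.34 in psoas (SE). The part of these cells in the C3 difference was not tested. CD14, PTPRC, CD3E and MARCO lay below 4 on every array. All 6 mesothelial markers on the array did so as well.

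The diaphragm arrays also varied in the actin controls, read for RNA quality by how far the 3' probe set exceeded the 5' probe set (log2). This actin difference was 4.07 to 4.33 in animals 1, 2, 3 and 5 and 3.35 to 3.49 in animals 4, 6, 7 and 8. That of the GAPDH controls was -0.04 to 0.08 in the first set and -0.23 to -0.07 in the second, a narrower range. Within the first set C3 was 9.39 in animal 1 (high level) and 7.24 to 7.69 in the 3 restricted animals. Within the second it was 8.94 to 9.76 in the 3 high-level animals and 8.57 in animal 8 (restricted). With the actin difference as a covariate the C3 feeding difference was -1.29 ± 0.25 in diaphragm and -0.86 ± 0.30 in psoas (SE). In diaphragm the sets largely coincided with the feeding levels. The part of RNA quality in the C3 difference was not tested.

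**Figure D5:**
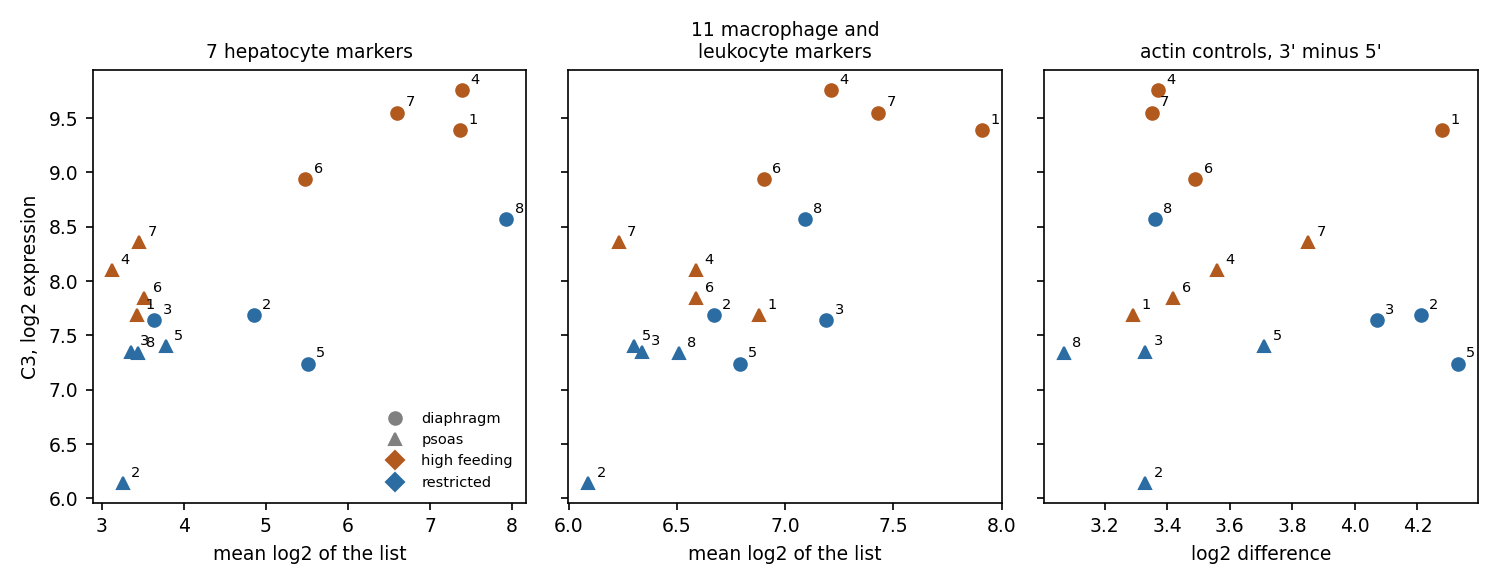
C3 (log2) on 16 arrays against the mean log2 of 7 hepatocyte markers (left), that of 11 macrophage and leukocyte markers (middle) and the 3' minus 5' log2 difference of actin controls (right). Circles are diaphragm and triangles psoas, colours are feeding levels and numbers are animals. On the hepatocyte axis psoas arrays lie between 3.13 and 3.78 and diaphragm arrays between 3.64 and 7.93.

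Adipocyte markers were set beside CFD. Of 13 on the array 5 were tested, and FABP4, the fatty acid carrier of adipocytes and endothelium, was the 1 called between muscles (-1.31 ± 0.22 SE, adjusted p = 0.000805, limma). That count is near the shares over all tested probe sets, 27.0% called and 12.4% called lower. Its level was 10.89 ± 0.56 in diaphragm, against 9.58 ± 0.53 in the 8 psoas arrays (log2, SD). ADIPOQ (adiponectin) lay below 4 on all psoas arrays and 4 of 8 diaphragm arrays, with the highest value, 6.52, in diaphragm of animal 7, where CFD was 9.84. Leptin (LEP) and PPARG lay below 4 on every array. The mean of the 5 tested markers was 7.81 to 9.05 in diaphragm and 7.60 to 7.98 in psoas. No adipocyte marker was called by feeding level, with FABP4 at 0.36 in diaphragm and 0.69 in psoas, AGPAT2, an acyltransferase of triglyceride synthesis, at -0.48 and -0.36, and GPD1, glycerol phosphate dehydrogenase, at 0.40 and 0.24. None of 4 tested lipogenesis genes was called by feeding level either. The stearoyl-CoA desaturase SCD was at -1.58 in diaphragm and -0.79 in psoas (adjusted p = 0.477 and 0.321, limma), and malic enzyme ME1 at 0.01 and -0.64. The part of fat cells in the CFD values was not tested.

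Of 8 tested genes of the acute phase and inflammation, in which C3 production rises in many tissues, none was called by feeding level. NFKBIA, an inhibitor induced by NF-kB, was at 0.37 and 0.42 in diaphragm and psoas, the transcription factor CEBPB at 0.11 and 0.32, and STAT3 at -0.21 and -0.35. CCL2 had the smallest p of the list in psoas (-0.75, adjusted p = 0.482, limma) and was at 0.04 in diaphragm. The list medians were 0.08 and 0.04. Between muscles PTX3, a pentraxin that binds C1q, rose in psoas (1.24 ± 0.23 SE, adjusted p = 0.00169).

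The genes whose values followed C3 most closely over 16 arrays were DYNLL2, a dynein light chain (Pearson r = 0.899), ITM2C (0.867), the collagen lysyl hydroxylase PLOD3 (0.864), the lysosomal protein prosaposin PSAP (0.851) and C1R (0.840), among 4570 genes compared. After the mean of each muscle was subtracted these were 0.850, 0.813, 0.796, 0.771 and 0.781. The arrays share animals and the muscle difference, so that these values are a description. DYNLL2 measured 9.04 to 9.39 in high-level and 8.74 to 8.99 in restricted diaphragms, and 8.89 to 8.98 against 8.36 to 8.62 in psoas. Its restricted arrays lay below all high-level arrays in both muscles, as at 0.262% of tested probe sets. DYNLL2 was picked for its likeness to C3, which was chosen for this pattern, so that this too is a description only. Ranks 9 to 12 held the leukocyte marker LAPTM5 (0.788), CD46 (0.787), C1S (0.787) and the hepatocyte marker HP (0.785). With muscle means subtracted they had 0.665, 0.74, 0.687 and 0.66. Within psoas they had 0.416, 0.645, 0.698 and -0.244, and HP lay below 4 on every array there.

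For CFD the closest were CDS2 (r = 0.834), RNF185 (0.811), the scavenger receptor SCARA5 (0.807), the myelin gene MBP (0.805) and HSD11B1, which activates glucocorticoids (0.802). After muscle means were subtracted they had 0.675, 0.761, 0.588, 0.590 and 0.676. Of the tested adipocyte markers, ADIPOQ was at 0.559, FABP4 at 0.496, PNPLA2 at 0.478, AGPAT2 at -0.044 and GPD1 at -0.066. After that subtraction they were at 0.321, -0.124, 0.199, -0.132 and 0.405. C3 and CFD had r = 0.479 over 16 arrays and 0.141 after it, so that most of their likeness lay in the muscle difference.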

How the data were processed

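Expression was measured on 16 Affymetrix porcine arrays, 1 per animal and muscle, and muscle markers (7 tested) had means of 14.07 to 14.61 on all arrays. The authors deposited log2 values, 1 per probe set and array, and the submitters' processing notes name GCRMA. The sources used here give neither its version nor whether the 16 arrays were summarised jointly. GCRMA compresses values near background and removes shifts shared by most probe sets of an array. Array medians were 3.56 to 3.62, and the number of arrays limits the precision.

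Of 24123 probe sets, 124 controls were left out and 11467 with a log2 value of at least 4 on at least 4 arrays were tested with limma 3.58.1 in R 4.3.3 and Benjamini-Hochberg adjustment (called at an adjusted p under 0.05). Muscles were compared over 16 arrays with feeding level and sex, but not the animal, in the model. Feeding levels and sexes were compared within each muscle on 8 arrays. Comparisons over both muscles used animal means, and interactions used animal means or differences. The fits were tested on simulated data. Symbols came from the platform annotation, and both gene identifiers kept their symbols in RefSeq assembly Sscrofa11.1. The tested probe set of highest mean stood for a gene.

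The members and lists were chosen with earlier results of these data known. Named genes were the called complement genes, those of smallest p in each list and the 5 most like each member by Pearson correlation. A few others, such as ALB, LEP and CFP, were named after their values were seen. Arrays are paired across muscles by the animal number in their labels, since an animal gave both. Deviations from the fit correlated at 0.0724 to 0.257 within animals. Alternatives were the filter, scaling, covariates, the animal as a block and leaving out each animal.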

Additional observations from a re-analysis of the deposited data

Results flagged for a closer look

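C3 in psoas of animal 2 (restricted, male) was 6.14 (log2), far below the nearest other array both among the 4 restricted psoas arrays and among all 8 psoas arrays (7.34). Without this animal the psoas feeding difference was -0.66. Among all 16 arrays this one also had the lowest mean of the macrophage and leukocyte markers, 6.09, and of the 14 complement genes, 5.94. The same held for the fibroblast markers, 7.53, and the acute phase and inflammation genes, 6.89, but not for the endothelial, hepatocyte or adipocyte markers. CFD in diaphragm of animal 4 (high level, male) was 9.21, below the other 3 male diaphragms, which began at 9.51. These came from 20 groups examined, and chance was assumed to mark about 1 in 20 groups.

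In psoas, restricted minus high for CFD was 0.55 in males and -0.59 in females, with 2 animals per combination. In diaphragm the corresponding values were 0.13 and -0.05, with overlapping groups. The difference between the sexes was -1.14 and was not tested within psoas. Over both muscles it did not pass (adjusted p = 1, limma).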

How the results depend on the processing

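Under 17 alternatives C3 by feeding level lay from -1.95 to -1.29 in diaphragm and from -1.14 to -0.66 in psoas. All values stayed within 1 SD between replicates of the main value. The C3 groups by feeding level did not overlap, so that leaving out 1 animal could not change the sign. A change of filter does not alter the fitted difference. These ranges therefore only describe a pattern for which C3 was chosen. The muscle difference of C3 lay between -1.41 (high level alone) and -0.73 (restricted alone), and that of CFD between -0.62 and -0.46. CFD by feeding level lay around 0, from -0.05 to 0.23 in diaphragm and from -0.34 to 0.15 in psoas. With the animal as a block, the muscle differences were unchanged (-1.07 for C3 and -0.55 for CFD), 3836 probe sets were called between muscles, 1 by feeding level in psoas and 39 between the sexes (21 without the block), and C1S, C1R, C1QC, SERPING1, CD59 and VSIG4 kept their calls between muscles. Without a filter CD59, C1QC and VSIG4 lost theirs (adjusted p = 0.0598, 0.116 and 0.0943, limma), and without covariates C1QC and VSIG4 did (0.114 and 0.0532). Between muscles 3094 probe sets were called, 2162 to 2906 with 1 animal left out, 405 with animals 4, 6, 7 and 8, 191 with high-level and 1386 with restricted animals alone, all with 8 arrays in place of 16 (the feeding levels alone were chosen after seeing the data). By feeding level, where none was called, no filter gave 1 in diaphragm and 2 in psoas, no covariate gave 2 in diaphragm, and leaving out 1 animal gave 0 to 2 in diaphragm, 0 to 1 in psoas and 0 to 1 over both. Between the sexes leaving out 1 animal gave 13 to 23, with 13 without animal 2 or 3. The cause of these shifts was not tested. The sex difference of C3 in diaphragm ranged from -0.37 to 0.16 with 1 animal left out, and the muscle difference of CFD by sex from -0.18 to 0.32, without a call. Each member had 1 probe set, so that no other could be tried.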
